A study of Rattus norvegicus with 12 samples.

Results

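A set of 7 miRNA names linked to white blood cells (miR-150, miR-146a, miR-146b, miR-155, miR-223, miR-142 and miR-342) were looked up among the probes of a rat plasma miRNA panel. A probe was taken when its name, without the species prefix and any arm ending, equalled one of these names. Of 420 endogenous miRNA probes, 8 belonged to 6 of the 7 names: rno-miR-150, rno-miR-146a, rno-miR-146b, rno-miR-223, rno-miR-142-3p, rno-miR-142-5p, rno-miR-342-3p and rno-miR-342-5p. miR-155 was not analysed here. The measurements came from the NanoString nCounter, which counts fluorescent barcodes hybridised to each miRNA without amplification, in plasma from 12 female Wistar rats. The pregnant group held 6 rats killed on embryonic day E14.5, aged 103, 104, 110, 110, 269 and 373 days. The control group held 6 rats that were not pregnant, aged 110, 111, 112, 112, 239 and 269 days. The labels name no treatment or genetic change in either group, each rat gave 1 plasma sample, and blood cells and platelets had been removed by centrifugation before RNA preparation. A single gestational day was sampled, so the pregnant group stands for mid gestation only.

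miRNAs are short RNAs that pair through their seed, bases 2 to 8 from the 5′ end, with target messenger RNAs and lower their output. Those examined here are best known from blood cells: miR-150 from mature lymphocytes, miR-223 from granulocytes and monocytes, miR-142 from nearly all haematopoietic cells, and miR-342 from lymphoid and myeloid cells. miR-146a and miR-146b are induced by inflammatory signalling and act back on it through adaptor proteins of the Toll-like receptor pathway. In plasma they circulate outside cells, in vesicles and protein complexes, and a plasma level does not tell which cell released them. In such bulk samples, fewer source cells and less RNA per cell cannot be told apart.

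The mature sequences are shown for their seeds, which pair with targets, and for the letters that they share over their whole length. The sequences were taken from RefSeq (assembly GRCr8), with the seed in capitals. The panel names both arms of miR-142 and miR-342 but no arm for miR-146a, miR-146b, miR-150 and miR-223; for those found in RefSeq the arm usually most abundant is given.
rno-miR-146a-5p: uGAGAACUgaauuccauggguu
rno-miR-146b-5p: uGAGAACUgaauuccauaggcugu
rno-miR-223-3p: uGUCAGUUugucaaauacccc
rno-miR-142-3p: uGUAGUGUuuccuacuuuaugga
rno-miR-142-5p: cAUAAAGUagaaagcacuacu
rno-miR-342-3p: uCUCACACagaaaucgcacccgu
rno-miR-342-5p: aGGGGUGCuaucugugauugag
The 2 arms of miR-142 lie at chr10:73055155-73055177 (3p) and chr10:73055119-73055139 (5p) on the plus strand, and those of miR-342 at chr6:133329715-133329737 (3p) and chr6:133329673-133329694 (5p), also on the plus strand. miR-146a-5p lies at chr10:28350053-28350074 on the minus strand, miR-146b-5p at chr1:255144874-255144897 on the plus strand and miR-223-3p at chrX:65151450-65151470 on the plus strand. miR-146a-5p and miR-146b-5p share the seed GAGAACU and were identical at 20 of 22 compared positions. They differed by G18A and U21C, with positions counted from the 5′ end and the miR-146a-5p base given first, and miR-146b-5p runs on to 24 bases. How far the 2 probes read each other's miRNA was not tested. The other 5 sequences each had a seed of their own.

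Depth differed between rats more than between groups. Endogenous counts summed to 6969 to 10176 in the controls and to 5163 to 30301 in the pregnant rats, where pregnant rats 5 and 6 (24010 and 30301 counts) stood above the 10 others (at most 13102). Background was set in each rat at the mean plus 1 standard deviation (SD) of 4 plant and worm probes that had no added target, and came to 12.6 to 32.4 counts. Replicate numbers only name rats, and the p-values below measure the spread between rats.

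The members spanned the range from one of the most abundant plasma miRNAs to values under background. miR-150 ranked 4 of 420 by mean raw count and made up 4.70% of all endogenous counts pooled over the 12 rats. Its raw count was 151 at the lowest, 319 at the median and 591 at the highest in controls, and 48, 417 and 1878 in pregnant rats. All 12 rats were above background for miR-150, and the pregnant range enclosed the control range on both sides.

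miR-146a ranked 21, with raw counts of 38 to 68 (median 50.5) in controls and 14 to 359 (median 51.5) in pregnant rats. It was the only other member above background in all 12 rats, although pregnant rat 2, at 14 counts against a background of 13.2, was only just so. These 2 of 8 members (25.0%) compare with 38 of 420 probes (9.05%) above background in every rat.

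miR-342-3p, the more abundant arm of miR-342, ranked 31, with raw counts of 19 to 67 in controls and 13 to 250 in pregnant rats, and was above background in 10 rats. miR-223 ranked 58, and its counts of 12 to 33 (median 18) in controls and 9 to 89 (median 13.5) in pregnant rats were above background in 6 rats. miR-142-3p, with 7 to 20 counts in controls and 6 to 51 in pregnant rats, was above background in 3 rats, among them pregnant rats 5 and 6.

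The remaining members gave little signal. miR-142-5p had 6 to 28 counts in controls and 9 to 24 in pregnant rats and was above background in 3 rats. miR-146b, the close relative of miR-146a, never exceeded 16 counts and miR-342-5p never exceeded 7, and neither was above background in any rat. At these counts, differences in miR-146b and miR-342-5p were not detectable. The order of the probes is an order of counts; probes bind with different efficiency, so it is not an order of molecules.

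**Figure D1:**
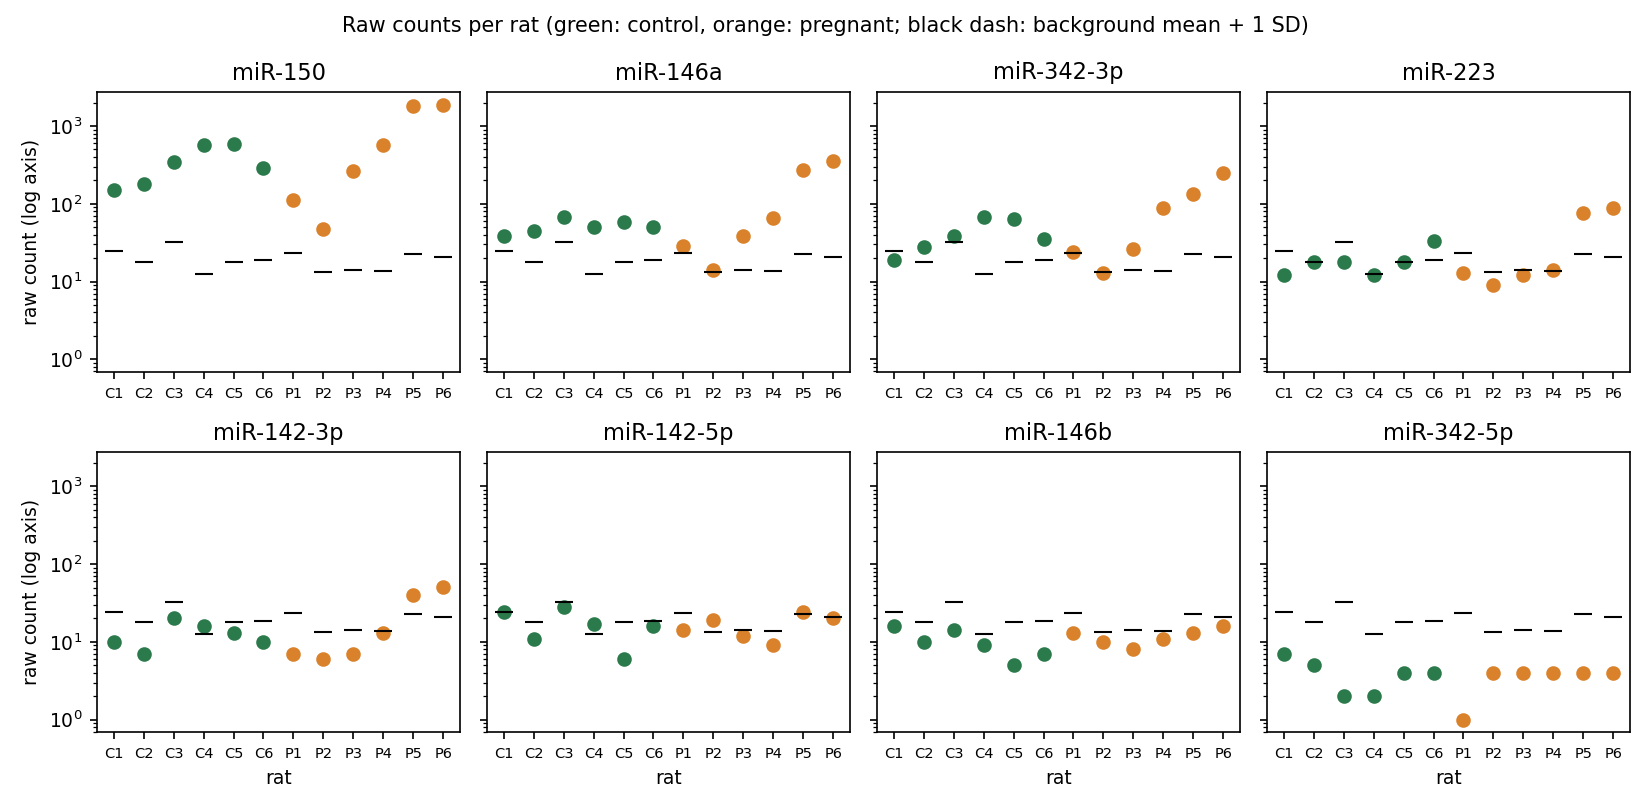
Raw counts (vertical log axis) of the 8 probes in control rats C1 to C6 (green) and pregnant rats P1 to P6 (orange), with each rat's background, mean plus 1 SD of the 4 probes with no added target, as a black dash. miR-150 lies above the dash in all 12 rats, miR-342-5p in none, and P5 and P6 are the highest rats for miR-150, miR-146a, miR-342-3p, miR-223 and miR-142-3p.

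To ask whether pregnancy changed these miRNAs, counts were scaled to CPM (counts per 1e6 counts of the scaled library) with TMM factors, which set a trimmed average of the probes equal between rats, and pregnant rats were compared with controls by edgeR's quasi-likelihood test over the 187 probes reaching 10 counts in 6 rats or more. Only 38 of the 420 probes were above background in every rat, so many of the probes that set these factors were near background. The factors were 0.65 and 0.48 in pregnant rats 5 and 6, the rats with the highest totals. Whether a difference in depth remained in their scaled levels was not tested. None of the 187 passed an adjusted p of 0.05 (0%), the lowest adjusted p being 0.67. At an unadjusted p under 0.05, 11 probes (5.88%) were found, and none was a member. Of the 8 members, 7 were tested and miR-342-5p was too low.

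For miR-150 the TMM-scaled level was 14523, 31685 and 75460 CPM at the lowest, median and highest control and 6043, 55008 and 137441 CPM in pregnant rats. Pregnant rats 4, 5 and 6 lay above every control and the pregnant group also held the lowest value, so the groups overlapped. The log2 fold change, pregnant over control, was 0.71 with a standard error (SE) of 0.74 (edgeR adjusted p = 0.83).

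miR-146a had the largest fold change of the members, 0.91 on the log2 scale (SE 0.53, edgeR adjusted p = 0.73). Controls were close together, at 3655 to 7533 CPM, whereas pregnant rats ran from 1762 to 26273 CPM, 14.9 times from lowest to highest. Pregnant rats 4, 5 and 6 were above every control, and pregnant rats 1 and 2 were below every control.

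miR-223, the myeloid miRNA, had 1154, 1951 and 3304 CPM at the lowest, median and highest control and 1133, 1700 and 6513 CPM in pregnant rats. Pregnant rats 5 and 6 alone exceeded every control, and the pregnant median was below the control median. The fold change of 0.62 on the log2 scale (SE 0.43, edgeR adjusted p = 0.73) therefore rested on those 2 rats.

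The values for miR-342-3p were 1827 to 8044 CPM in controls and 1637 to 18296 CPM in pregnant rats, a log2 fold change of 0.75 (SE 0.54, edgeR adjusted p = 0.75). miR-142-3p had 827 to 1973 CPM in controls and 755 to 3732 CPM in pregnant rats, with nearly equal medians of 1330 and 1317 CPM, and a log2 fold change of 0.47 (SE 0.40). miR-146b and miR-142-5p had log2 fold changes of 0.12 (SE 0.24) and -0.15 (SE 0.26). In a fit on all 420 probes miR-342-5p had -0.25 (SE 0.36). Thus 6 of the 7 tested members had a positive estimate, with a median of 0.62 against 0.05 over all 187 probes, but none passed the test and in no member did the groups separate (0% of the 187 probes had groups that did not overlap).

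The sign of these estimates depended on scaling and on 2 rats. With scaling to the endogenous total alone, 1 of the 7 tested members, miR-146a at 0.08, had a positive estimate, and the median of the members was -0.16 where that of all 187 probes was -0.33. Without pregnant rats 5 and 6 the log2 fold change was -0.34 for miR-150, -0.30 for miR-146a, -0.43 for miR-223 and -0.42 for miR-142-3p, with 0.03 for miR-342-3p. limma-voom, which fits weighted log2 values of the same counts, gave -0.05 for miR-150 and 0.02 for miR-146a. The plain difference of the group means of log2 CPM was 0.20 for miR-150 and 0.35 for miR-146a. With rats of up to 112 days only, 4 against 4, miR-146a had 1.11 (SE 0.62) and miR-150 0.73 (SE 0.96), again short of the threshold.

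**Figure D2:**
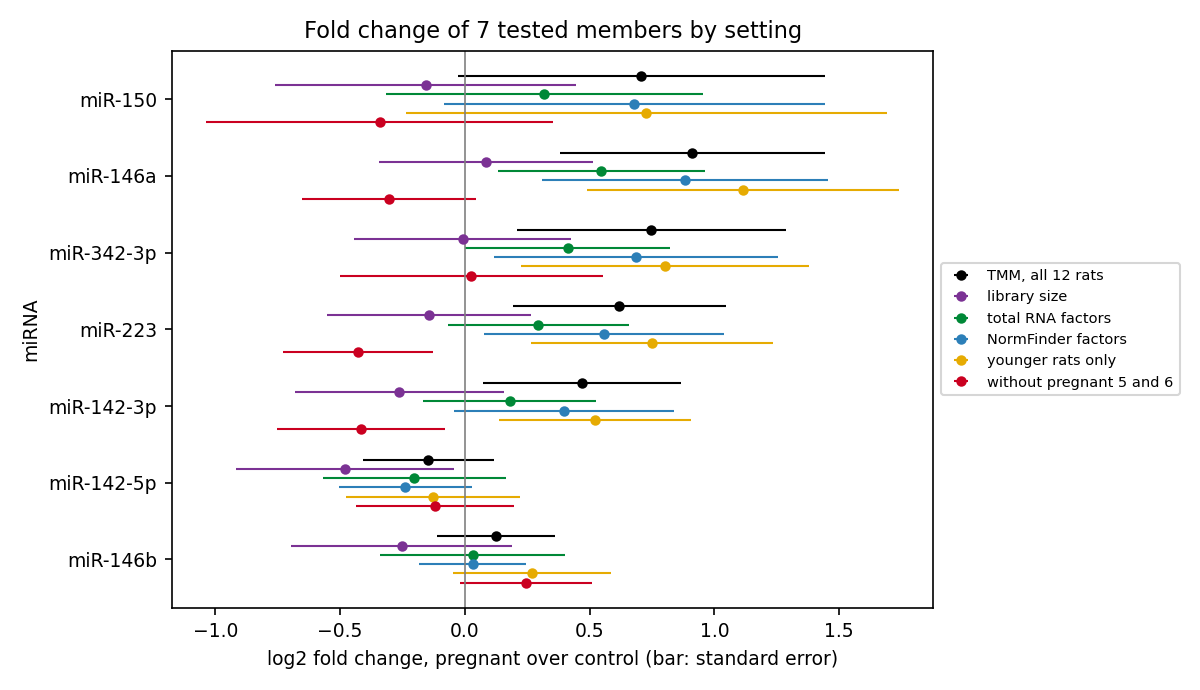
Log2 fold change, pregnant over control (horizontal), of the 7 tested members (vertical) under 6 settings, with bars for 1 SE. The black points (TMM, all 12 rats) of miR-150, miR-146a, miR-342-3p, miR-223 and miR-142-3p lie between 0.47 and 0.91, and the red points (without pregnant rats 5 and 6) between -0.43 and 0.03.

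The study's own approach processed the counts in many ways before a comparison by the methods' t-test, so 14 such workflows were rebuilt. They combined no background correction, subtraction, or thresholding (raising low counts to the background), each at the mean, the mean plus 1 SD or the mean plus 2 SD, with scaling by total RNA normalisers or by 5 stable probes found with NormFinder. Across the 14 workflows, 39 of 420 probes (9.29%) had an unadjusted p under 0.05 at least once, and none was a member. miR-150 and miR-146a were themselves among the 38 total RNA normalisers, so their own level entered that scaling. The 5 NormFinder probes differed from the study's choice. Its 2 most stable probes, miR-20a with miR-20b-5p and miR-27b, ranked 12 and 16 here and were not used. The NormFinder workflows are therefore not those of the study. miR-146a and miR-342-3p were higher in pregnant rats in all 14 workflows, by 0.52 to 1.49 and 0.27 to 1.34 on the log2 scale of the group means, and the lowest exact permutation p-values were 0.37 and 0.25. miR-150 ranged from -0.05 to 0.68.

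miR-223 and miR-142-3p, both under background in at least 6 rats, had the widest ranges over the workflows. miR-223 ranged from -0.11 with thresholding at the mean plus 2 SD and total RNA scaling to 2.29 with subtraction at the mean plus 2 SD and NormFinder scaling, with a lowest exact permutation p of 0.24. miR-142-3p ranged from -0.19 to 2.01, with a lowest exact permutation p of 0.14. The values above 1 for both occurred only where background had been subtracted.

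**Figure D3:**
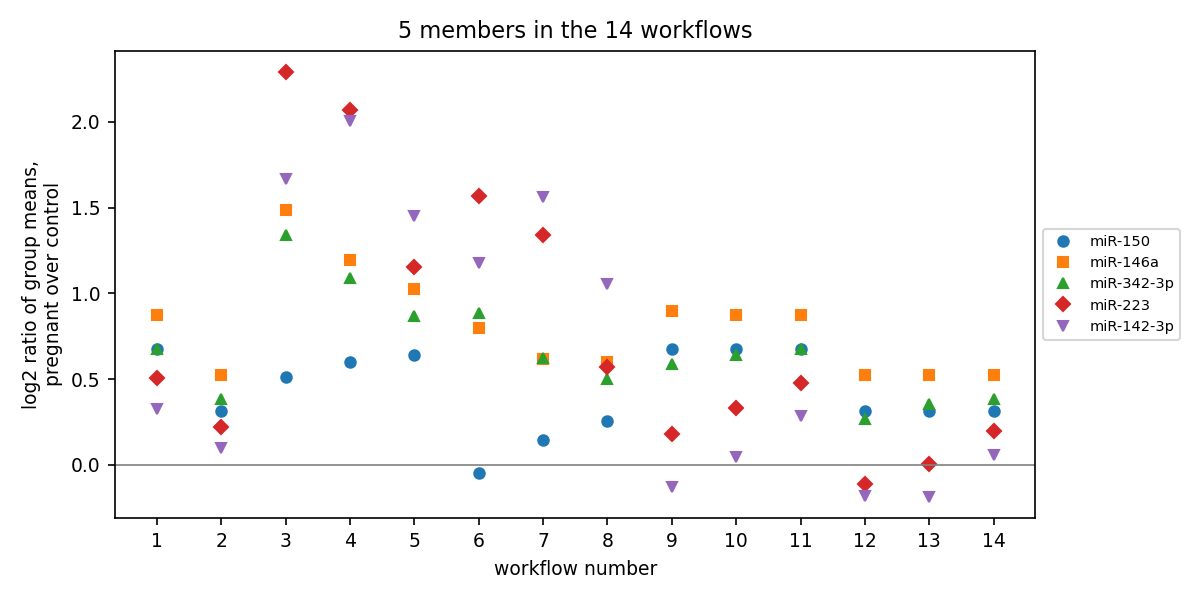
Log2 ratio of the group means, pregnant over control (vertical), of 5 members in each of the 14 rebuilt workflows (horizontal): 1 and 2 without correction, 3 to 8 with subtraction, 9 to 14 with thresholding. With subtraction miR-223 reaches 2.29 and miR-142-3p 2.01, and with thresholding all 5 members lie between -0.19 and 0.90.

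Other miRNAs of blood and tissue origin were read in the same fit from fixed lists. Of 10 probes for further miRNAs linked to lymphoid or myeloid cells and inflammation, 6 were tested, 3 with positive and 3 with negative estimates, and none passed the adjusted threshold. miR-21, widely induced in inflammation and growth, had a log2 fold change of 1.23 (SE 0.57, edgeR adjusted p = 0.73), and miR-29a and miR-29c, of one family, had 0.94 (SE 0.62) and 0.61 (SE 0.47). miR-132 and miR-147 had -0.36 (SE 0.20) and -0.46 (SE 0.22). miR-181a, a regulator of T cell receptor sensitivity, had -0.19 (SE 0.57).

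Both red cell probes had positive estimates, 1.31 (SE 0.51) for miR-144 and 0.57 (SE 0.71) for miR-451, and their summed level was 17593 to 85094 CPM in controls and 6924 to 184963 CPM in pregnant rats. The 3 tested platelet probes of 4 also had positive estimates: 1.01 for miR-126, which endothelium also makes, 0.76 for miR-16 and 0.68 for miR-191. The platelet list summed to 28811 to 72278 CPM in controls and 4280 to 202649 CPM in pregnant rats. miR-24 was at 1 count in all 12 rats, and miR-16 was at 1 count in pregnant rats 1 and 2. No probe of these lists passed the adjusted test, and the part of red cell or platelet RNA in the members' values was not tested beyond the ratios given below. miR-122, made by hepatocytes, had 1.65 (SE 1.12) and miR-192 had 1.01 (SE 0.43); the 3 liver probes summed to 14616 to 312784 CPM in controls and 10952 to 723828 CPM in pregnant rats.

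Ratios to another miRNA in the same rat do not depend on scaling. For 5 members (miR-150, miR-146a, miR-342-3p, miR-223 and miR-142-3p, a set chosen after their values were seen) against miR-451, miR-126 and miR-191, the pregnant minus control difference of the log2 ratio lay between -0.29 and 0.36 in the 15 comparisons. The lowest adjusted p of the exact permutation test was 0.98. For miR-150 over miR-451, for example, the mean log2 ratio was -0.10 (SD 0.41, n = 6) in pregnant rats and -0.23 (SD 1.03, n = 6) in controls.

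Age divided the rats as well, since each group held 4 younger rats (up to 112 days) and 2 older ones (239 days or more). This comparison was chosen after the values had been seen, and pregnancy was kept as a covariate. No probe of 187 passed the adjusted threshold (0%; lowest adjusted p 0.61), and 12 had an unadjusted p under 0.05. Of these, 10 probes (5.35% of those tested) were lower in older rats, and 3 of the 10 were members: miR-142-3p, miR-342-3p and miR-150. An exact permutation of age class within each group (225 assignments) on log2 CPM gave weaker results. Its unadjusted p was 0.04 for miR-142-3p, 0.08 for miR-342-3p and 0.13 for miR-150.

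miR-142-3p stood at 962, 827, 796 and 884 CPM in the 4 older rats, and at 755 to 3732 CPM (median 1798) in the 8 younger rats. Only pregnant rat 2, 103 days old and with the lowest endogenous total, kept the age classes from separating. The log2 difference, older over younger, was -1.17 (SE 0.38, edgeR adjusted p = 0.61). In raw counts the older rats had 10, 7, 7 and 7, all under their background of 14.3 to 24.4, and of the younger rats only control 4 and pregnant rats 5 and 6 were above theirs, so the size of this difference is not measured in the older rats.

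For miR-342-3p the older rats had 1827, 3306, 2727 and 3283 CPM and the younger rats 1637 to 18296 CPM (median 7890), a difference of -1.47 (SE 0.51, edgeR adjusted p = 0.61). For miR-150 the older rats had 14523, 21018, 12728 and 33711 CPM and the younger rats 6043 to 137441 CPM (median 70694), a difference of -1.71 (SE 0.74, edgeR adjusted p = 0.63). All 4 older rats were below the younger median for both. In the controls alone, the 2 older rats lay below all 4 younger rats for miR-142-3p, miR-342-3p and miR-150, as they did for 17 of the 187 tested probes (9.09%), among them miR-16, miR-191 and miR-192.

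miR-146a and miR-223 had differences of -1.10 (SE 0.54) and -0.89 (SE 0.44), with unadjusted p = 0.061 and 0.063 in the edgeR fit (edgeR adjusted p = 0.69 for both). In raw counts miR-223 stood at 12, 18, 13 and 12 in the older rats, and only control 2 was above its background (17.8). miR-142-5p had -0.04 and miR-146b 0.31. Over the 7 tested members the median was -1.10, beside -0.02 over all 187 probes. The 6 tested probes of the list of further miRNAs linked to lymphoid or myeloid cells and inflammation had a median of -0.33. Of these, 5 had negative estimates, the largest being miR-181a at -1.54 (SE 0.58, edgeR adjusted p = 0.61), and 1 was positive. Under the 3 other scalings the members' median was -0.98 to -1.22. It was -0.45 without pregnant rats 5 and 6, and -0.53 within the controls.

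Of the 12 rats left out singly, 1 changed the call. Without pregnant rat 2, 3 probes passed the adjusted threshold, among them miR-142-3p at -1.29 (SE 0.28) and miR-342-3p at -1.62 (SE 0.35), each with an edgeR adjusted p of 0.024, miR-142-3p being under background in all 4 older rats. Without pregnant rats 5 and 6 the differences shrank to -0.73 for miR-142-3p, -0.45 for miR-146a and -0.29 for miR-223. miR-150 then had -1.22 and miR-342-3p -1.17, and no probe passed. Within the controls 2 probes passed and neither was a member.

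The members' share of all endogenous counts was 2.44% to 3.00% in the 4 older rats and 2.38% to 10.9% (median 8.09%) in the 8 younger ones. miR-122 made up 6.93% to 43.6% of that total in older rats and 1.3% to 17.8% in younger ones. With miR-122 left out of the total, the members' share was 3.02% to 5.06% (median 3.77%) in older and 2.41% to 11.1% (median 9.02%) in younger rats. By pregnancy the median share was 5.47% in controls and 5.32% in pregnant rats, or 5.9% and 7.26% without miR-122. Marker miRNAs also had negative estimates for age, none past the adjusted threshold (edgeR adjusted p = 0.69 for miR-126 and 0.73 for the others): miR-451 had -1.27 (SE 0.74), miR-144 -0.86 (SE 0.55), miR-126 -1.57 (SE 0.73), miR-16 -1.70 (SE 1.22) and miR-191 -0.59 (SE 0.36). The estimate for miR-16 includes 1 count in pregnant rat 1, an older rat, and 1 count in pregnant rat 2, a younger one. Summed platelet probes were at 7955 to 33374 CPM in older and 4280 to 202649 CPM in younger rats, and summed red cell probes at 17593 to 40876 and 6924 to 184963 CPM. The 2 tested liver probes were split: miR-122 went the other way, at 1.81 (SE 1.02), whereas miR-192 had -1.08 (SE 0.42, edgeR adjusted p = 0.61). With ratios to miR-451, miR-126 and miR-191, the lowest adjusted p of the exact permutation test for age was 0.38.

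**Figure D4:**
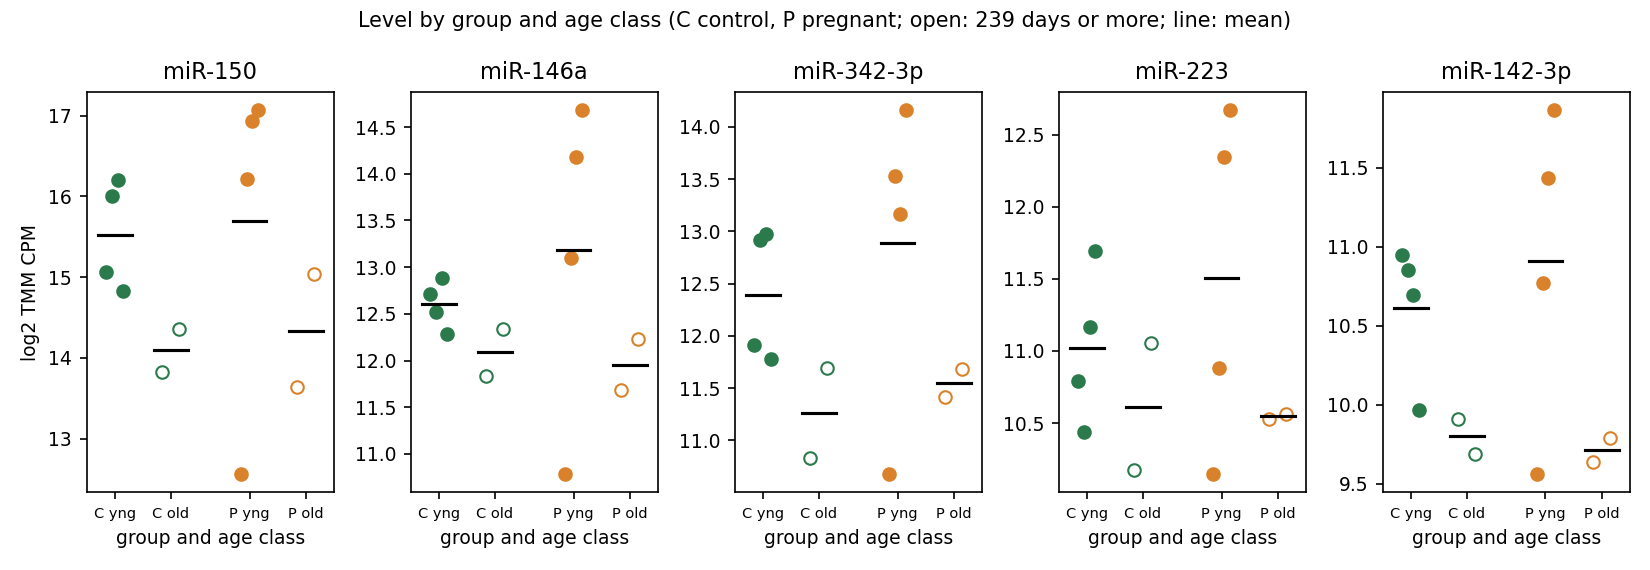
Level in log2 TMM-scaled CPM (vertical) of 5 members by group and age class (horizontal), with filled points for rats of up to 112 days, open points for rats of 239 days or more, and lines at the means. Open points lie low for miR-142-3p (796 to 962 CPM, all under background), and the lowest filled orange point in each panel is pregnant rat 2.

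The members differed widely in how much they varied between rats. miR-150 had an SD of 1.39 on the log2 CPM scale over the 12 rats, larger than 97.9% of the 187 tested probes. It was followed by miR-342-3p (1.10), miR-146a (1.05), miR-223 (0.81) and miR-142-3p (0.77), while miR-142-5p (0.50) and miR-146b (0.42) were near the median of all tested probes, 0.47. Other listed probes above background in all 12 rats had an SD of 2.19 (miR-122), 1.36 (miR-126), 1.31 (miR-451), 1.28 (miR-29a) and 0.70 (miR-191). A spread like that of miR-150 was thus not particular to it.

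The levels of 5 members varied together across rats. Pearson's r and Spearman's rho of log2 CPM were computed over 12 rats for 42 relations: the 21 pairs of tested members and each such member with miR-451, miR-126 and miR-122. After Benjamini-Hochberg adjustment over the 42, Pearson's r passed 0.05 by permutation in 10 of the 21 member pairs, and these were the 10 pairs among miR-150, miR-146a, miR-342-3p, miR-223 and miR-142-3p (Spearman's rho in 9 of them). Their r lay between 0.70 and 0.95. Of all 17391 pairs of tested probes, 800 (4.6%) had an r at least as high as the lowest of these 10, beside 10 of the 21 member pairs (47.6%). Other probes thus varied together too. Many tested probes were near background, and the share among pairs of probes with clear signal was not computed. By Pearson's r the closest pair was miR-150 with miR-342-3p, with r = 0.95 (permutation p = 2e-05, adjusted 0.00017) and rho = 0.97 (permutation p = 1e-05, the smallest that 100000 resamples can give, adjusted 0.00014). For miR-150 with miR-146a, r was 0.93 and rho 0.97. By rho the closest pair was miR-146a with miR-342-3p (0.972 against 0.965).

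These relations did not all hold equally. The 2 rats farthest from the median of the first measure were pregnant rats 5 and 6 in most pairs; without the 2 farthest, miR-150 kept r = 0.93 with miR-342-3p and 0.94 with miR-146a, but miR-142-3p with miR-223 went from 0.71 to 0.20 and miR-223 with miR-342-3p from 0.70 to 0.42. The relations of miR-223 thus rested largely on those 2 rats. Among the 6 pregnant rats r was 0.84 to 0.97 in the 10 pairs, and among the 6 controls it ranged from 0.98 for miR-150 with miR-342-3p (exact permutation p = 0.0014) down to -0.19 for miR-142-3p with miR-223. With scaling to the endogenous total r was 0.47 to 0.90. All values of a rat share its library and scaling factor.

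miR-142-5p and miR-146b did not share this pattern, although they come from the same hairpin as miR-142-3p and share a seed with miR-146a. miR-142-5p had r = -0.12 with miR-142-3p, and miR-146b had r = -0.23 with miR-146a (permutation p adjusted over the 42 of 0.765 and 0.613). Both probes were near background, where a correlation has little to rest on.

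The same 5 members were also set against 1 platelet and 1 red cell probe. With miR-126, r was 0.73 for miR-223, 0.83 for miR-342-3p, 0.86 for miR-150 and 0.94 for both miR-146a and miR-142-3p, and passed the adjusted threshold by permutation in all 5. With miR-451 it was 0.63 to 0.85 and passed in all but miR-223 (adjusted permutation p = 0.063). The share of all 187 tested probes with an r this high to miR-126 or miR-451 was not computed, so these counts do not set the members apart. With the liver miRNA miR-122, r was only 0.11 to 0.34. In controls alone r with miR-451 was lower, at 0.49 for miR-142-3p, 0.32 for miR-150, 0.22 for miR-342-3p, -0.02 for miR-146a and -0.17 for miR-223. With miR-126 the controls gave 0.81 for miR-142-3p, 0.74 for miR-146a, 0.59 for miR-150, 0.54 for miR-342-3p and -0.29 for miR-223.

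**Figure D5:**
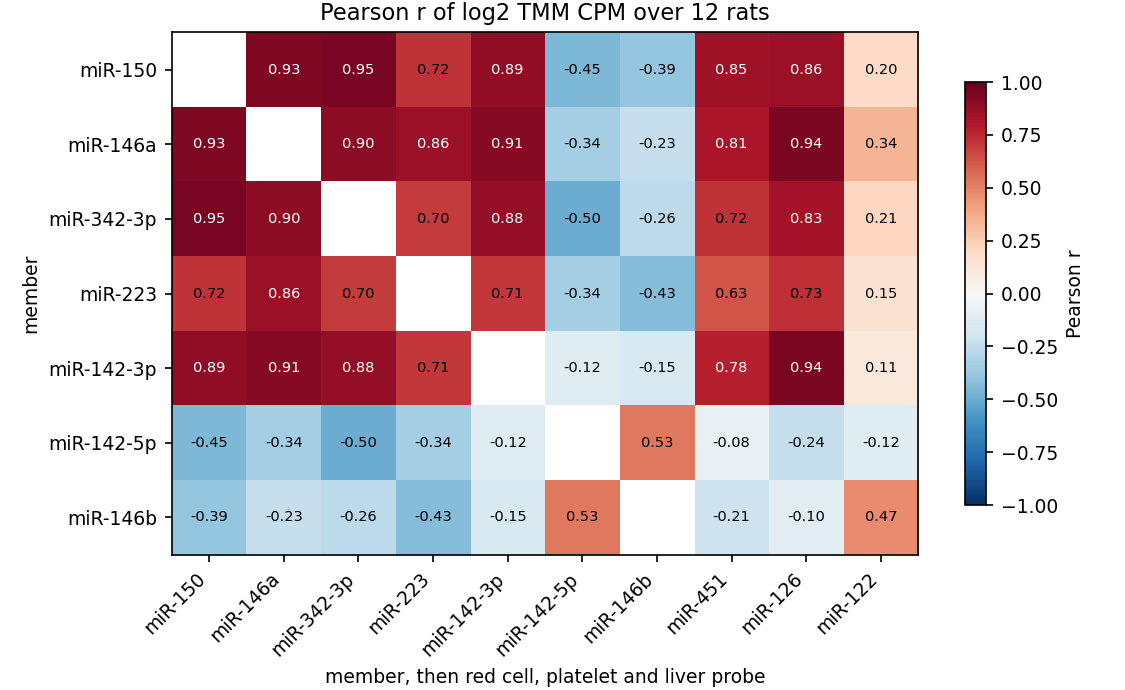
Pearson's r of log2 TMM-scaled CPM over the 12 rats between each of the 7 tested members (rows) and the members and miR-451, miR-126 and miR-122 (columns), red for positive and blue for negative values. The 5 upper rows are red among themselves (0.70 to 0.95) and with miR-451 and miR-126. miR-142-5p and miR-146b are at or below -0.12 with the members of those 5 rows.

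Among the tested probes outside the members, the levels most like each member across the 12 rats were ranked by Spearman's rho, with no test. miR-27a was among the 3 nearest for miR-146a (rho 0.94), miR-150 (0.94) and miR-342-3p (0.92), and miR-301a for miR-146a (0.94) and miR-342-3p (0.88). The third for miR-146a was miR-126 (0.92), and miR-150 had the combined probe for miR-20a and miR-20b-5p (0.94) and miR-203 (0.92). miR-16 was near miR-342-3p (0.87) and miR-142-3p (0.92), which also had miR-106b (0.93) and miR-181a (0.90). miR-223 was less closely followed, by miR-378 (0.80), miR-30d (0.78) and miR-449c-5p (0.78). miR-146b was nearest to miR-421 (0.80), miR-3567 (0.72) and miR-10a-5p (0.61), and miR-142-5p to miR-370 (0.63), miR-369-5p (0.61) and miR-99a (0.60).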

How the data were processed

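Per the labels, plasma RNA from each rat was hybridised to the NanoString rat miRNA panel. The authors deposited raw barcode counts per probe, 1 column per rat, not normalised; the smallest value was 1. No 2 columns were identical. Groups came from the sample labels. The members, marker lists and comparisons were chosen with earlier results of these data known. All members were named, listed probes were named where tested, and for each tested member the 3 probes with the highest Spearman's rho.

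The 420 endogenous probes were filtered (at least 10 counts in at least 6 rats), scaled by TMM and tested with edgeR 4.0.16 (glmQLFit, glmQLFTest; R 4.3.3) with Benjamini-Hochberg adjustment over 187 probes. SEs were taken from the fold change and F. Alternatives were library size, total RNA and NormFinder factors, DESeq2 1.42.0, limma-voom 3.58.1, exact permutation, no filter, a replicate block, age class and leaving out rats. The 14 workflows used 4 exogenous probes with no spike-in as background; the codeset's negative and positive controls were not used here. Permutations used scipy 1.17.1. The edgeR and NormFinder steps were tested on simulated data.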

Additional observations from a re-analysis of the deposited data

How the results depend on the processing

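No probe passed the adjusted threshold for pregnancy under any alternative tried, each rat left out included (0 in each). The members' estimates changed sign in 14 comparisons with an alternative, and the other 170 values kept their direction or count. By library size the log2 fold change was -0.26 for miR-142-3p, -0.25 for miR-146b, -0.16 for miR-150, -0.15 for miR-223 and -0.01 for miR-342-3p (-0.00965). Without both pregnant rats of the highest totals, a choice made after seeing the data, it was -0.42 for miR-142-3p, -0.30 for miR-146a, -0.34 for miR-150 and -0.43 for miR-223. limma-voom gave -0.05 (-0.0484) for miR-150. Leaving out 1 rat at a time gave -0.35 to 0.020 for miR-142-5p and -0.041 to 0.22 for miR-146b. The cause was not tested.

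For age, also chosen after seeing the data, 0 to 3 probes passed when 1 rat was left out (3 without pregnant rat 2) and 2 within the controls. miR-142-5p, with -0.04 in all rats, had -0.22 to 0.10 with 1 rat left out and 0.0038 within controls. Members above background in all rats numbered 3 of 8 (37.5%) at the mean, beside 80 of 420 probes (19.0%). At the mean plus 2 SD they numbered 1 of 8 (12.5%), beside 20 of 420 probes (4.76%). Of 50 values of r recomputed for the 10 correlated pairs, 1 turned negative, -0.19 for miR-142-3p with miR-223 in controls.

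The replicate numbers did not pair rats: same-numbered rats correlated over 0.1 in 2 of 6 pairs, and 2 of 12 rats correlated best with their own number. With a replicate block 0 probes were called, and the members' median was 0.31. Most members had few counts, which limits what could be detected.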
